A study of Homo sapiens with 6 samples.

Results

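The genes described here are the cytosolic and mitochondrial chaperones: heat shock proteins, their DNAJ and BAG co-chaperones, the subunits of the TRiC/CCT chaperonin and the heat shock factors that control many of them. They were taken by gene symbol from a fixed list of 47 genes, out of 35322 gene symbols in the count matrix, by a rule that uses no measured value. Of the 47, 45 passed the filter on low counts that left 16510 genes for testing, and the 2 that did not, HSPA1A and HSPA1B, are described in their own paragraph. RNA was sequenced from 22Rv1, a human prostate carcinoma cell line, in 6 libraries: 2 of control cells, 2 of ZMYND11 kd1 and 2 of ZMYND11 kd2, in which ZMYND11, a reader of histone H3.3 trimethylated at lysine K36, was silenced with stably expressed lentiviral short hairpin RNAs. Per the labels no group was treated, and none is labelled as exposed to heat or arsenite. The study's methods say that infected cells were selected with puromycin and then kept in a lower dose of it. Whether the control cells sequenced here also received puromycin is not given. The labels give the control genotype as WT, while the study's legends speak of control hairpins, so it is unclear whether a vector was present in the control cells, and neither source says which hairpin is kd1 or kd2 or whether each line was a clone or a pool. The labels do not say that the libraries of a group came from separate cultures, and the p-values then measure only the spread between these libraries, which may be technical.

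As background, HSP70 proteins bind exposed hydrophobic stretches of unfolded proteins in a cycle driven by ATP, which DNAJ proteins start by delivering clients and BAG and HSP110 proteins end by exchanging the nucleotide. Clients such as steroid receptors and kinases pass on to HSP90, a dimer served by its own co-chaperones, while actin and tubulin fold inside the TRiC/CCT ring, and a separate set works in the mitochondrial matrix. The heat shock factor HSF1 raises many of these genes when unfolded proteins accumulate.

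Libraries held 26844128 to 38193748 counts, and the lowest count of any tested chaperone gene in any library was 94. All levels are given as normalized CPM, that is counts scaled to a common library size with the TMM factor of edgeR, and all changes are log2 fold changes with their standard error (SE). A gene was called at an adjusted p under 0.05 in edgeR's quasi-likelihood test, with Benjamini-Hochberg adjustment over the 16510 genes. ZMYND11 itself read 141 and 135 CPM in control, 27.7 and 26.1 in kd1, and 21.6 and 22.7 in kd2, a fall of 2.35 and 2.64 on the log2 scale. Both comparisons with control use the same 2 control libraries, so they are not independent of each other. Luminal prostate markers summed to between 2851 and 2875 CPM in control, 3707 and 3736 in kd1 and 4090 and 4106 in kd2, with none of the 10 at 0. Of these 10 markers, 5 were called higher and 4 lower in kd1, and 5 higher and 5 lower in kd2. The 6 fibroblast markers summed to 33.2 to 35.9 CPM in control, 86.6 to 87.2 in kd1 and 44.3 to 44.7 in kd2, most of it COL1A1. Leukocyte markers summed to at most 2.17 CPM with CD3E at 0 in every library, and endothelial markers to at most 0.196 CPM with KDR at 0 throughout. The part of these shifts in the chaperone values was not tested.

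Most chaperone genes were higher in each knockdown than in control. In ZMYND11 kd1, 34 of the 45 tested genes rose, 7 fell and 4 did not pass the test, with a median of 0.59 on the log2 scale against -0.03 over all genes tested. In ZMYND11 kd2, 40 rose, 3 fell and 2 did not pass, with a median of 0.88 against -0.03. These shares stand beside a large background, since 78% of all tested genes were called in kd1 (38.2% higher and 39.8% lower) and 73.4% in kd2 (36.5% higher and 36.9% lower). Called and changed by at least 1.5-fold were 23 higher and 4 lower in kd1, beside 59.7% of all genes (28.6% higher and 31.2% lower), and 28 higher and 1 lower in kd2, beside 51.1% (23.8% higher and 27.3% lower). In kd1 the share of chaperone genes past that fold in either direction is thus close to that of all genes, while the split between higher and lower differs. The counts of the 47 genes together made up 1.133% and 1.152% of the control libraries, 1.51% of each kd1 library, and 1.86% and 1.79% of the kd2 libraries. Their summed level was 1.69 times the control mean in kd1 and 1.80 times in kd2, and in bulk RNA a change in the share of a kind of cell and a change of RNA per cell cannot be told apart. The 7 genes that fell in kd1 were HSPA13, FKBP4, DNAJC2, BAG2, HSPB11, DNAJA3 and TRAP1, and the 3 that fell in kd2 were HSPB11, DNAJA3 and TRAP1. When libraries were scaled by their totals alone, the median of all genes moved by -0.35 in kd1 and -0.17 in kd2, and the chaperone counts became 28 higher and 13 lower in kd1 (68.3% of calls higher, in place of 82.9%) and 34 higher and 4 lower in kd2. The chaperone median was then 0.23 against -0.38 over all genes in kd1 and 0.70 against -0.20 in kd2, where the gap is the same by construction because another scaling moves every gene alike.

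**Figure D1:**
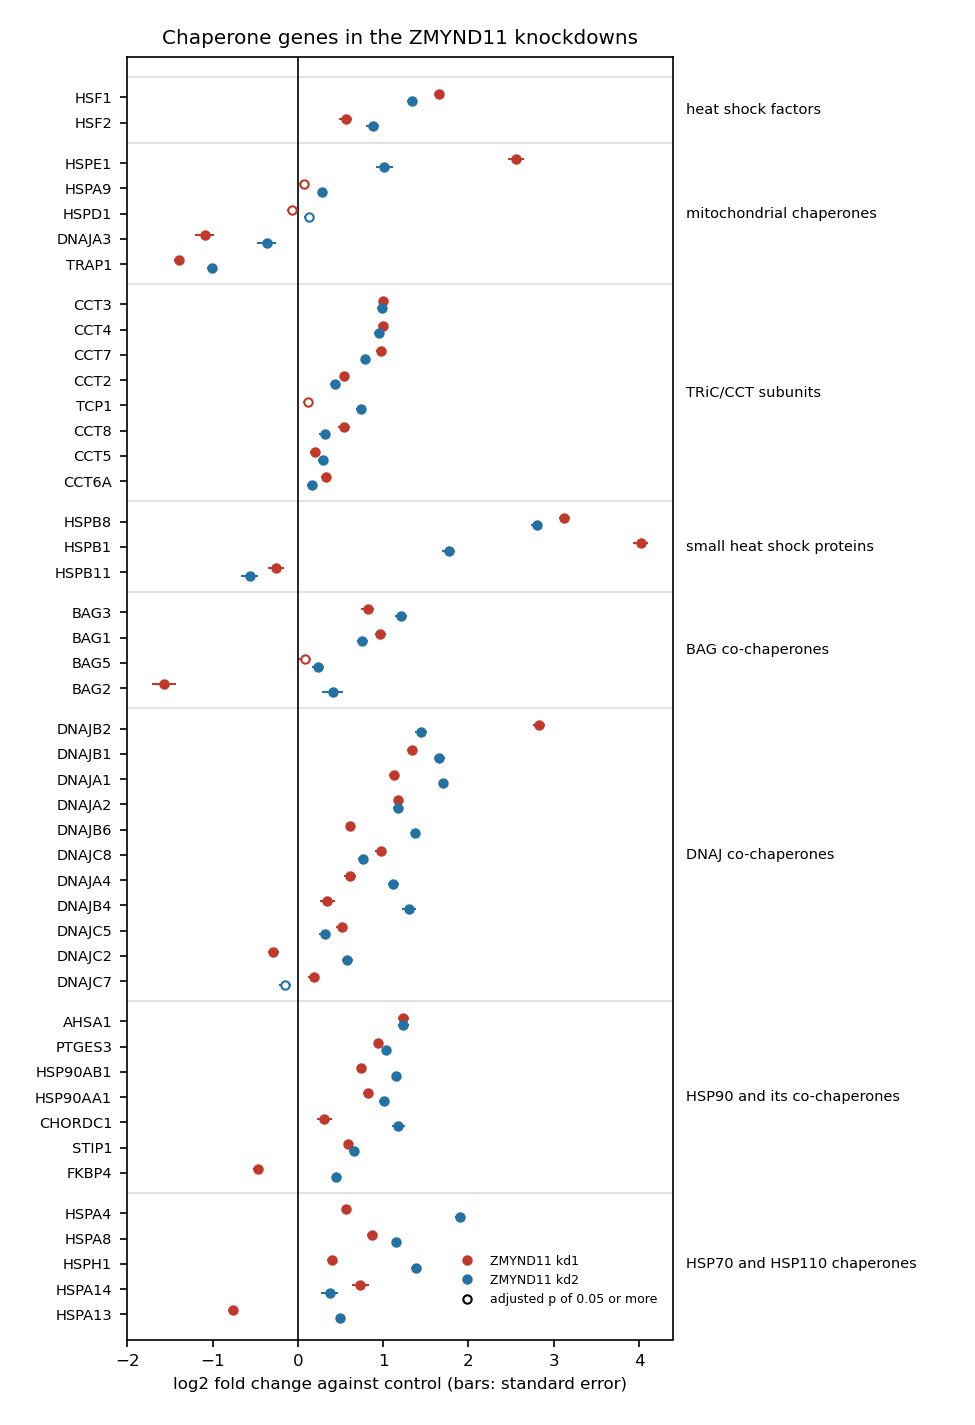
Log2 fold change against control of the 45 tested chaperone genes, grouped by role, for ZMYND11 kd1 (red) and ZMYND11 kd2 (blue), with bars of 1 standard error and open points where the adjusted p was 0.05 or more. Points lie to the right of 0 for most genes, HSPB1 in kd1 stands farthest out at 4.02, and TRAP1 and DNAJA3 lie to the left in both knockdowns.

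Heat shock elements, the binding sites of the heat shock factors, are built from inverted repeats of the pentamer NGAAN. They were searched in RefSeq promoter windows (GRCh38.p14, 250 bases before to 50 after each annotated start), of which 43 of the 47 genes had at least 1. A run of 3 repeats, spelled GAANNTTCNNGAA or its reverse complement TTCNNGAANNTTC, occurred in 7 of these 43 genes (16.3%) and in 0.608% of all 27305 genes with a window. The shorter GAANNTTC, which is its own reverse complement, occurred in 16 of the 43 (37.2%) against 8.21% of all, and TTCNNGAA, also its own reverse complement, in 11 (25.6%) against 9.46%. Both short forms lie inside the long one, so the counts overlap. The 7 genes with the long form were HSPA8, HSP90AA1, HSP90AB1, CHORDC1, DNAJA1, DNAJB6 and HSPD1, of which all but HSPD1 were called higher in each knockdown, beside 34 of 45 tested chaperone genes in kd1 and 40 in kd2 and 38.2% and 36.5% of all genes, which sets these 6 of 7 close to the share of the chaperone genes as a whole. Their matches before a start site are shown because they mark the sequence class that this gene family is known for. Each is written 5′ to 3′ on the strand of its gene, with the matching bases in capitals, and a match is a description of the letters, not of a bound site. The match of DNAJA1 lies after its start and is not printed.
HSPA8 (chr11:123062346-123062374, minus strand, match 230 to 218 bases before the start): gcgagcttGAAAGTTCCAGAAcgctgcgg
HSPA8 (chr11:123062171-123062199, minus strand, match 55 to 43 bases before the start): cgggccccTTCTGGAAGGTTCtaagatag
HSP90AA1 (chr14:102087112-102087140, minus strand, match 88 to 76 bases before the start): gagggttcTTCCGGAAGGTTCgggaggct
HSP90AB1 (chr6:44247770-44247798, plus strand, match 165 to 153 bases before the start): ggagcaggTTCTGGAAGATTCatgggctc
HSP90AB1 (chr6:44247823-44247851, plus strand, match 112 to 100 bases before the start): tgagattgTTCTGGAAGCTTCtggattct
CHORDC1 (chr11:90223084-90223112, minus strand, overlapping matches 60 to 38 bases before the start): ccgGAAAATTCGCGAAGGTTCCTGAAacg
DNAJB6 (chr7:157336865-157336893, plus strand, match 131 to 119 bases before the start): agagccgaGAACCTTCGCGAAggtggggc
HSPD1 (chr2:197500062-197500090, minus strand, overlapping matches 245 to 228 bases before the second annotated start): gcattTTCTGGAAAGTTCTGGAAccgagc

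The tested HSP70 and HSP110 genes were higher in kd2, and in kd1 all of them but HSPA13. Of the 5 tested genes, 4 rose and 1 fell in kd1, and 5 rose in kd2, and the summed level of the class was 1.60 and 2.33 times control. HSPA8 (chr11:123057489-123063230) encodes the constitutive HSC70. It read 959 and 980.0 CPM in control, 1746 and 1783 in kd1, and 2175 and 2131 in kd2. Every knockdown library lay above both controls, and kd2 lay above kd1. The change was 0.86 ± 0.048 (SE) in kd1 (adjusted p = 4.90e-10) and 1.15 ± 0.049 (SE) in kd2 (adjusted p = 4.57e-11), or 1.82-fold and 2.22-fold. HSPA4 (chr5:133052013-133106449), an HSP110-type nucleotide exchange factor, read 184 and 190.4 CPM in control, 275 and 278 in kd1, and 699 and 698 in kd2. The groups did not overlap, and the kd2 libraries stood well apart from the other 4. Its change was 0.56 ± 0.050 (SE) in kd1 (adjusted p = 8.23e-08) and 1.90 ± 0.051 (SE) in kd2 (adjusted p = 5.76e-13), a 3.73-fold level. The kd1 change was 0.21 with library totals alone. HSPH1 (chr13:31134973-31162388), the heat-inducible member of the same exchange factor family, read 56.8 and 60.0 CPM in control, 76.6 and 77.8 in kd1, and 156 and 149 in kd2. All 3 groups were separate, in the order control, kd1, kd2. It changed by 0.40 ± 0.058 (SE) in kd1 (adjusted p = 1.73e-05) and by 1.39 ± 0.058 (SE) in kd2 (adjusted p = 3.84e-11), and the kd1 call was lost with library totals alone (0.05, adjusted p = 0.454), while a correction of each library for gene length and GC content raised that change to 0.89. HSPA14, which works with DNAJC2 at the ribosome, rose by 0.73 in kd1 and 0.37 in kd2. Its kd2 call was lost without control replicate 1 (0.29, adjusted p = 0.0624), with library totals alone (0.20, adjusted p = 0.0790) and with the correction for length and GC content (0.18, adjusted p = 0.0770). HSPA13 is known as a microsome-associated HSP70 relative, so its place among chaperones outside the endoplasmic reticulum rests on the list alone, and it fell by 0.77 in kd1 and rose by 0.50 in kd2.

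**Figure D2:**
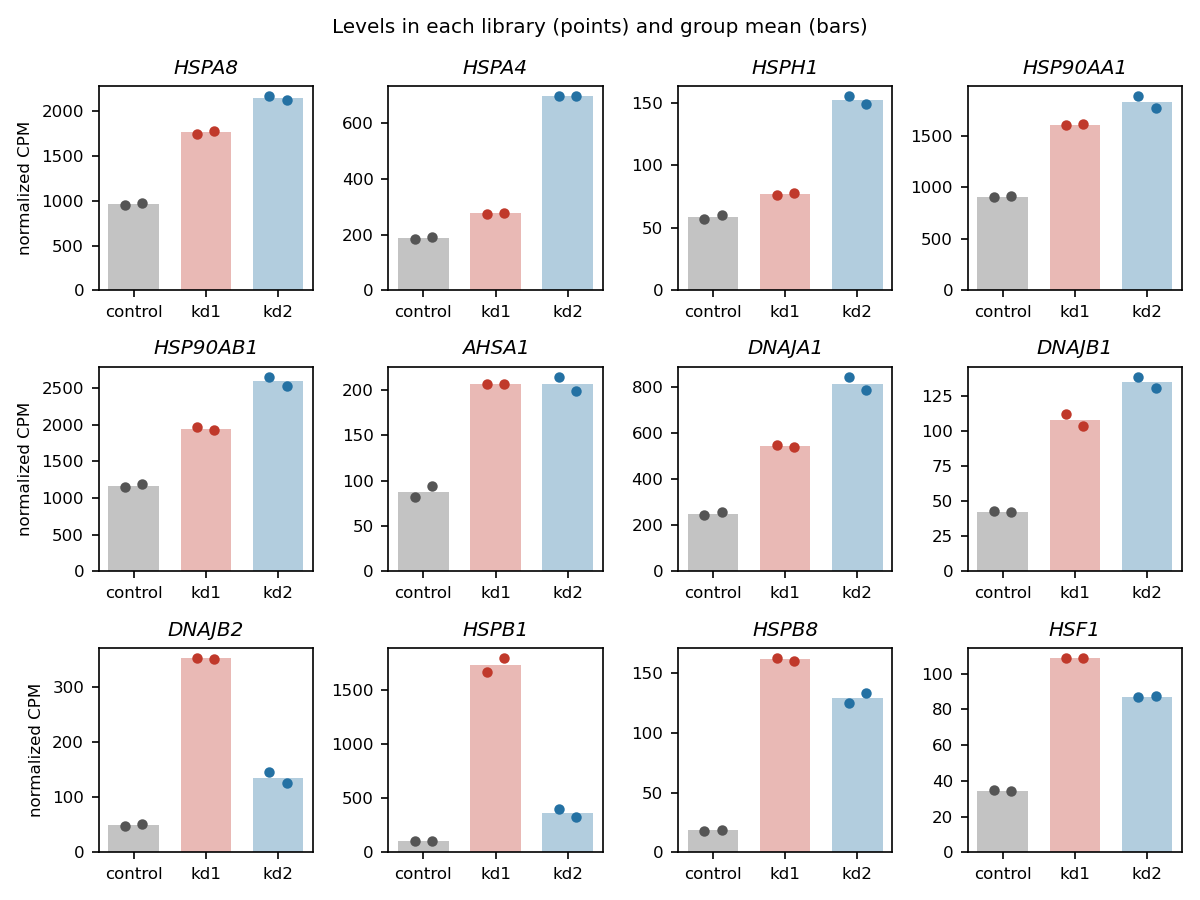
Normalized CPM of 12 chaperone genes in each of the 6 libraries (points, 2 per group) with the group mean (bars, axes from 0), for control (grey), ZMYND11 kd1 (red) and ZMYND11 kd2 (blue). In each panel all 4 knockdown libraries lie above both control libraries, HSPA4 and HSPH1 are highest in kd2, and DNAJB2 and HSPB1 are highest in kd1.

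The main stress-inducible HSP70 genes, HSPA1A (chr6:31815543-31817946) and HSPA1B (chr6:31827738-31830254), had almost no counts. HSPA1A was counted 0 and 1 times in control, 5 and 0 times in kd1, and 4 and 0 times in kd2, and HSPA1B 0 times in all 6 libraries. With a floor of 3 counts, a library could hide up to 0.084 to 0.101 CPM, for counting error only. The copies are nearly identical in sequence, and how reads matching both were counted is not stated in the sources used here, so no level or fold is given for them. Within 200 kb of the pair, 15 of 36 other protein-coding genes had over 100 counts in every library and 9 had 0 counts in all. Neither entered the tests, and nothing about heat-inducible HSP70 follows from these counts. HSPA6, another inducible HSP70 that is no member of the list, read 0.131 and 0.0966 CPM in control, 0.471 and 0.203 in kd1 and 0.476 and 0.380 in kd2. These levels rest on only 4 and 3 counts in control, 16 and 6 in kd1 and 17 and 13 in kd2.

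HSP90 and its co-chaperones rose in nearly full number. Of 7 genes, 6 rose and FKBP4 fell in kd1, and 7 rose in kd2, with the summed level at 1.67 and 2.03 times control. HSP90AB1 (chr6:44246166-44253888), the constitutive cytosolic HSP90, read 1144 and 1188 CPM in control, 1965 and 1925 in kd1, and 2651 and 2531 in kd2. HSP90AA1 (chr14:102080742-102139699), its inducible counterpart, read 907 and 916 CPM in control, 1604 and 1615 in kd1, and 1891 and 1768 in kd2. In both genes the 3 groups were separate, in the order control, kd1, kd2. HSP90AB1 changed by 0.74 ± 0.050 (SE) in kd1 (adjusted p = 4.32e-09) and 1.15 ± 0.051 (SE) in kd2 (adjusted p = 6.81e-11), and HSP90AA1 by 0.82 ± 0.051 (SE) (adjusted p = 1.58e-09) and 1.00 ± 0.051 (SE) (adjusted p = 3.02e-10). The difference of kd2 from kd1 in HSP90AA1 (0.18, adjusted p = 0.00481) was lost with the correction for length and GC content (0.04, adjusted p = 0.497). Counted per kb of exon, HSP90AA1 made up 31.7% and 31.1% of the sum of both forms in control, 32.3% and 32.9% in kd1, and 29.4% and 29.0% in kd2.

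Among the co-chaperones, AHSA1 (chr14:77457870-77469472), which stimulates the ATPase of HSP90, read 81.7 and 93.7 CPM in control, 206 and 207 in kd1, and 214 and 199 in kd2. PTGES3 (chr12:56663341-56688408), the p23 protein that holds HSP90 closed on its client, read 385 and 389 CPM in control, 740.3 and 746 in kd1, and 823 and 763 in kd2. All 4 knockdown libraries lay above both controls in each gene, and the difference between the knockdowns did not pass the test in either, though some alternatives called it. AHSA1 changed by 1.23 ± 0.067 (SE) in kd1 (adjusted p = 3.28e-10) and 1.24 ± 0.067 (SE) in kd2 (adjusted p = 5.43e-10), with a difference of kd2 from kd1 of 0.00 ± 0.064 (SE). That difference was called higher with library totals alone (0.18, adjusted p = 0.0136) and with the correction for length and GC content (0.41, adjusted p = 2.48e-06), which also lowered the kd1 change of AHSA1 to 0.64. PTGES3 changed by 0.94 ± 0.053 (SE) (adjusted p = 5.00e-10) and 1.03 ± 0.053 (SE) (adjusted p = 3.12e-10), with a difference of 0.09 ± 0.052 (SE) that was called without kd2 replicate 2 (0.15, adjusted p = 0.00166) and with library totals alone (0.28, adjusted p = 7.56e-05). STIP1, the HOP adaptor that passes clients from HSP70 to HSP90, rose by 0.59 and 0.65. CHORDC1, an HSP90-binding protein with zinc-binding CHORD domains, rose by 0.31 in kd1 and 1.18 in kd2. Its kd1 call was lost without control replicate 1 (0.23, adjusted p = 0.0740) or kd1 replicate 1 (0.23, adjusted p = 0.0641), with library totals alone its sign turned (-0.04), and with the correction for length and GC content it was 0.81. FKBP4, the FKBP52 immunophilin of steroid receptor complexes, read 205 and 218 CPM in control, 149.5 and 155 in kd1, and 290.3 and 287 in kd2. Its kd1 libraries lay below both controls and its kd2 libraries above them, at -0.47 ± 0.054 (SE) (adjusted p = 1.28e-06) and 0.45 ± 0.053 (SE) (adjusted p = 2.57e-06).

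The DNAJ co-chaperones held some of the larger changes. In kd1 10 of 11 rose and DNAJC2 fell, and in kd2 10 rose and DNAJC7 did not pass, with summed levels of 2.08 and 2.28 times control. DNAJB2 (chr2:219279342-219286898), a DNAJ protein with ubiquitin-interacting motifs, read 47.7 and 51.5 CPM in control, 353 and 351 in kd1, and 145 and 126 in kd2. It was highest in kd1, with kd2 between kd1 and control and no overlap. The change was 2.83 ± 0.071 (SE) in kd1, a 7.09-fold level (adjusted p = 1.83e-13), and 1.45 ± 0.070 (SE) in kd2, 2.73-fold (adjusted p = 1.79e-10). DNAJB1 (chr19:14514769-14560391), the main heat-inducible HSP40, read 43.2 and 42.1 CPM in control, 112 and 104 in kd1, and 139 and 131 in kd2. DNAJA1 (chr9:33025273-33039907), an HSP70 partner with a farnesylated end, read 242 and 257 CPM in control, 546 and 541 in kd1, and 844 and 785 in kd2. In both genes the order was control, kd1, kd2 without overlap. DNAJB1 changed by 1.34 ± 0.063 (SE) (adjusted p = 7.82e-11) and 1.66 ± 0.063 (SE) (adjusted p = 1.54e-11), and DNAJA1 by 1.12 ± 0.055 (SE) (adjusted p = 1.19e-10) and 1.71 ± 0.056 (SE) (adjusted p = 3.98e-12).

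The other DNAJ genes had smaller mean changes over both knockdowns. DNAJA2, a close relative of DNAJA1, rose by 1.18 and 1.17, and DNAJA4 by 0.61 and 1.12. DNAJB6, a suppressor of protein aggregation, rose by 0.61 in kd1 and 1.38 in kd2, and DNAJB4 by 0.34 and 1.30. The kd1 call of DNAJB4 was lost without control replicate 2 (0.25, adjusted p = 0.0516), and with library totals alone its sign turned (-0.01). DNAJC5, the cysteine string protein of secretory vesicles, rose by 0.52 and 0.31, the kd2 call being lost with library totals alone (0.14, adjusted p = 0.0693). DNAJC8, which is known from the spliceosome, rose by 0.97 and 0.76. DNAJC7, a TPR protein that binds HSP70 and HSP90, rose by 0.19 in kd1 (adjusted p = 0.0215) and stood at -0.15 in kd2 (adjusted p = 0.0574). That rise was lost with the DESeq2 Wald test (0.19, adjusted p = 0.0504) and with at least 10 counts asked in every library (0.14, adjusted p = 0.0643). It was also lost without control replicate 1 (0.12) or kd1 replicate 2 (0.15). With library totals alone it turned into a fall (-0.17), and with the correction for length and GC content it was 0.45. In kd2 a fall was called with library totals alone (-0.32, adjusted p = 4.47e-04) and with at least 10 counts in every library (-0.19, adjusted p = 0.0191). A kd2 fall was also called without control replicate 1 (-0.21) or kd2 replicate 1 (-0.22). DNAJC2, the ribosome-associated zuotin, read 55.3 and 57.4 CPM in control, 45.3 and 46.9 in kd1, and 86.4 and 82.1 in kd2. Its kd1 libraries were below both controls and its kd2 libraries above, at -0.29 ± 0.063 (SE) (adjusted p = 7.09e-04) and 0.58 ± 0.061 (SE) (adjusted p = 7.73e-07). Of its exon bases, 20.9% overlap exons of PMPCB on the opposite strand, which changed by 0.23 and 0.23, and whether reads were counted by strand is not stated.

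BAG proteins, which release clients from HSP70, did not move as a block. In kd1 BAG1 and BAG3 rose, BAG2 fell and BAG5 did not pass, and in kd2 all 4 rose, with summed levels of 1.67 and 1.62 times control. BAG1 (chr9:33247820-33264720) read 172 and 172 CPM in control, 329 and 341 in kd1, and 311 and 268 in kd2. BAG3 (chr10:119651380-119677819), the heat-inducible member that acts with HSPB8 in selective autophagy, read 23.1 and 23.9 CPM in control, 40.0 and 42.8 in kd1, and 56.0 and 52.8 in kd2. All knockdown libraries of both genes lay above the controls, with BAG1 higher in kd1 and BAG3 higher in kd2. The difference of kd2 from kd1 in BAG1 (-0.21, adjusted p = 0.00947) was lost with library totals alone (-0.03, adjusted p = 0.695) and without kd1 replicate 2 (-0.18, adjusted p = 0.0869), and was -0.33 without kd2 replicate 1 and -0.10 without kd2 replicate 2. BAG1 changed by 0.97 ± 0.065 (SE) (adjusted p = 4.01e-09) and 0.76 ± 0.065 (SE) (adjusted p = 8.93e-08), and BAG3 by 0.82 ± 0.074 (SE) (adjusted p = 1.08e-07) and 1.21 ± 0.073 (SE) (adjusted p = 1.77e-09). BAG2 (chr6:57172326-57189833), an inhibitor of the ubiquitin ligase CHIP, read 9.86 and 10.4 CPM in control, 3.62 and 3.18 in kd1, and 14.4 and 12.6 in kd2. Both kd1 libraries lay far below the controls, at a fitted 0.336 times their level, and both kd2 libraries lay above them. The change was -1.57 ± 0.14 (SE) in kd1 (adjusted p = 1.20e-07) and 0.41 ± 0.12 (SE) in kd2 (adjusted p = 0.00774). With the correction for length and GC content the kd1 fall shrank to -0.93 and was still called. The kd2 call was lost without control replicate 1 (0.37, adjusted p = 0.0622), without kd2 replicate 1 (0.30, adjusted p = 0.0542) and with library totals alone (0.24, adjusted p = 0.0930). Exons of RAB23 on the opposite strand cover 42.7% of the exon bases of BAG2, and RAB23 stood at -2.05 in kd1 and -0.20 in kd2, so reads of the pair could be mixed if strand was not used. BAG5, with several BAG domains, stood at 0.09 in kd1 and rose by 0.24 in kd2, a call lost without control replicate 1 (0.18, adjusted p = 0.108) and with library totals alone (0.07, adjusted p = 0.389). In kd1 BAG5 was called lower with library totals alone (-0.27) and higher with the correction for length and GC content (0.48), so its direction there depends on the processing.

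The small heat shock proteins, which hold unfolding proteins without using ATP, held the largest rise among the chaperone genes in each knockdown, HSPB1 in kd1 and HSPB8 in kd2. HSPB1 (chr7:76302673-76304295), also named HSP27, read 110.2 and 103 CPM in control, 1665 and 1801 in kd1, and 398 and 329 in kd2. HSPB8 (chr12:119171555-119224855), the partner of BAG3, read 18.0 and 19.0 CPM in control, 163 and 160.3 in kd1, and 125 and 134 in kd2. All 4 knockdown libraries lay above both controls in each gene, with HSPB1 much higher in kd1 than in kd2. HSPB1 changed by 4.02 ± 0.086 (SE) in kd1 (adjusted p = 4.24e-14) and 1.77 ± 0.080 (SE) in kd2 (adjusted p = 8.77e-11), that is 16.2-fold and 3.40-fold. With the correction for length and GC content the kd1 change of HSPB1 was 2.93, more than 1 log2 unit smaller, and still called. HSPB8 changed by 3.12 ± 0.066 (SE) (adjusted p = 4.05e-14) and 2.80 ± 0.065 (SE) (adjusted p = 1.77e-13), 8.72-fold and 6.98-fold. HSPB11 (chr1:53916574-53945699) carries the family name but is known as the intraflagellar transport protein IFT25. It read 21.8 and 23.4 CPM in control, 18.2 and 19.8 in kd1, and 16.3 and 14.2 in kd2, and its knockdown libraries lay below both controls. It fell by 0.26 in kd1 (adjusted p = 0.0274) and 0.57 in kd2 (adjusted p = 1.27e-04). The kd1 call was lost with the DESeq2 Wald test (-0.25, adjusted p = 0.0964), and also without control replicate 2 (-0.21) or kd1 replicate 1 (-0.19).

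The 8 subunits of TRiC/CCT, the ring that folds actin and tubulin, were mostly higher in the knockdowns, by unequal amounts. In kd1 7 rose and TCP1 did not pass, and in kd2 all 8 rose, with no subunit called lower and summed levels of 1.57 and 1.53 times control. CCT3 (chr1:156308968-156367873) read 352 and 369 CPM in control, 716 and 729 in kd1, and 737 and 689 in kd2. CCT4 (chr2:61868085-61888671) read 139 and 144 CPM in control, 284 and 281 in kd1, and 284 and 263 in kd2. CCT7 (chr2:73233420-73253021) read 280.4 and 282 CPM in control, 549 and 555 in kd1, and 505 and 468 in kd2. In these subunits all 4 knockdown libraries lay above both controls, with 1.73-fold for CCT7 in kd2 as the smallest change. Their changes were 1.00 ± 0.054 (SE), 1.00 ± 0.055 (SE) and 0.97 ± 0.053 (SE) in kd1, and 0.98 ± 0.053 (SE), 0.95 ± 0.055 (SE) and 0.79 ± 0.053 (SE) in kd2, in that order, with the largest adjusted p at 5.78e-09. CCT2 rose by 0.54 and 0.43, CCT8 by 0.54 and 0.31 (0.21 in kd2 without kd2 replicate 1), CCT6A by 0.32 and 0.16 (0.10 to 0.22 in kd2 when a library was left out), and CCT5 by 0.20 and 0.29. TCP1, the founding subunit, stood at 0.12 in kd1 (adjusted p = 0.0725) and rose by 0.74 in kd2 (adjusted p = 3.81e-08). The call of CCT5 in kd1 was lost without control replicate 1 (0.13, adjusted p = 0.143), and that of CCT6A in kd2 without control replicate 1 (0.15, adjusted p = 0.118) or 2 (0.17, adjusted p = 0.0689), while TCP1 was called higher in kd1 without kd2 replicate 1 (0.13, adjusted p = 0.00246) or 2 (0.12, adjusted p = 0.00430). With library totals alone CCT5 and TCP1 were called lower in kd1 (-0.16 and -0.23), CCT6A stood at -0.03 in kd1 and -0.01 in kd2, and the kd2 call of CCT5 was lost (0.12, adjusted p = 0.0530), so the direction of these subunits in kd1, and of CCT6A in both, depends on the scaling. CCT6A in kd2 was also not called with the correction for length and GC content (0.07, adjusted p = 0.146). Per kb of exon, the most abundant subunit exceeded the least abundant, CCT5, by 3.02 and 2.81 times in the control libraries (CCT6A highest), 4.91 and 5.09 times in kd1 and 4.67 and 4.59 times in kd2 (CCT3 highest). With the longest transcript as length CCT3 was already the highest in control, at 176 CPM per kb beside 141 for CCT6A, so the top subunit in control depends on the length used. An antisense RNA covers 30.8% of the exon bases of CCT5.

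**Figure D3:**
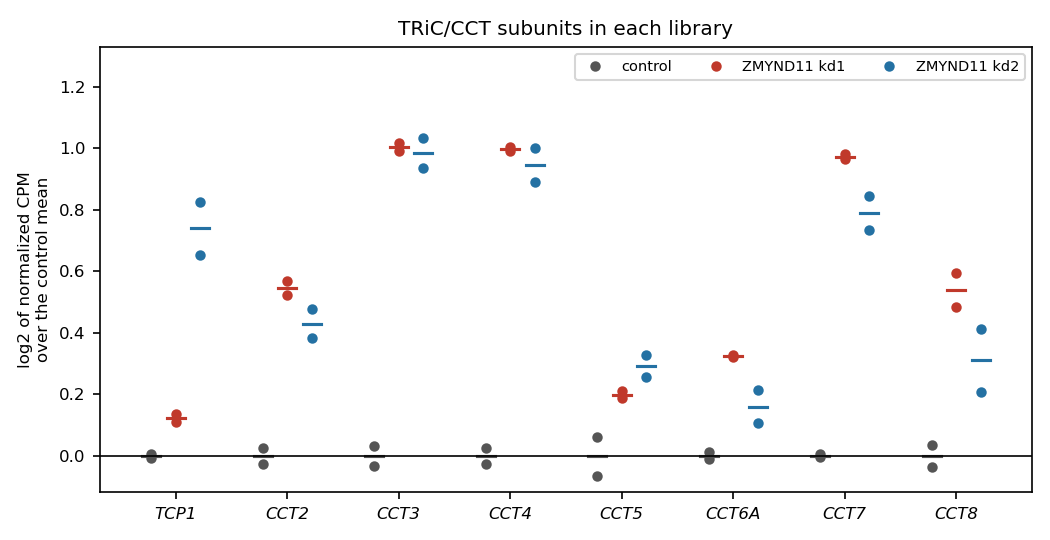
Log2 of normalized CPM over the control mean for the 8 TRiC/CCT subunits, with a point per library (2 per group) and a short line at the mean of the log2 values, for control (grey), ZMYND11 kd1 (red) and ZMYND11 kd2 (blue). CCT3, CCT4 and CCT7 lie near 1 in kd1, CCT5 and CCT6A stay between 0 and 0.4 in every knockdown library, and TCP1 is higher in kd2 than in kd1.

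The mitochondrial chaperones did not rise together, and their summed level was 0.986 times control in kd1 and 1.11 times in kd2. In kd1 HSPE1 rose, DNAJA3 and TRAP1 fell and the other 2 did not pass, and in kd2 HSPE1 and HSPA9 rose, the same 2 fell and HSPD1 did not pass. HSPE1 (chr2:197500140-197503449), the HSP10 lid of the matrix chaperonin, read 18.2 and 20.03 CPM in control, 107 and 119 in kd1, and 42.4 and 34.8 in kd2. HSPD1 (chr2:197486584-197516737), the HSP60 barrel that HSP10 closes, read 1275 and 1313 CPM in control, 1234 and 1238 in kd1, and 1486 and 1334 in kd2. HSPE1 was separate in all 3 groups and highest in kd1, whereas the HSPD1 levels lay much closer together. HSPE1 changed by 2.56 ± 0.096 (SE) (adjusted p = 7.60e-12) and 1.01 ± 0.098 (SE) (adjusted p = 3.24e-07), and HSPD1 by -0.07 ± 0.056 (SE) (adjusted p = 0.291) and 0.12 ± 0.056 (SE) (adjusted p = 0.0603). These genes lie head to head on chromosome 2, with their closest annotated starts 105 bases apart, and the HSPD1 match printed above lies after the first and before the second annotated start of HSPD1. Exons of HSPD1 on the opposite strand cover 7.41% of the exon bases of HSPE1. Exons of HSPE1-MOB4 on the same strand cover 10.5%, and that gene had 0 counts in every library. How reads in these overlaps were counted is not stated, so the level of HSPE1 beside HSPD1 is uncertain. HSPD1 was called higher in kd2 without kd2 replicate 2 (0.20, adjusted p = 2.59e-05), with no filter on low counts (0.13, adjusted p = 0.0153) and with the correction for length and GC content (0.17, adjusted p = 0.0153).

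TRAP1 (chr16:3651639-3717553), the mitochondrial HSP90, read 104 and 107 CPM in control, 40.0 and 40.2 in kd1, and 51.2 and 53.5 in kd2. DNAJA3 (chr16:4425805-4456775), the mitochondrial J-protein also named TID1, read 80.1 and 76.3 CPM in control, 40.6 and 32.4 in kd1, and 52.9 and 68.3 in kd2. All knockdown libraries of both genes lay below the controls, and the kd2 libraries of DNAJA3 were the most spread. TRAP1 changed by -1.39 ± 0.060 (SE) (adjusted p = 3.11e-11) and -1.01 ± 0.059 (SE) (adjusted p = 1.20e-09), and DNAJA3 by -1.10 ± 0.11 (SE) (adjusted p = 4.31e-07) and -0.37 ± 0.11 (SE) (adjusted p = 0.00698). The kd2 change of DNAJA3 was -0.20 without kd2 replicate 1 and -0.56 without kd2 replicate 2, called in each case. Exons of DNASE1 on the opposite strand cover 28.5% of the exon bases of TRAP1, and DNASE1 stood at 0.62 in kd1 and -0.15 in kd2. HSPA9, the matrix HSP70 known as mortalin, stood at 0.07 in kd1 (adjusted p = 0.241) and rose by 0.28 in kd2 (adjusted p = 1.23e-04). The correction for length and GC content moved HSPA9 to 0.71 (adjusted p = 1.47e-09) and HSPD1 to 0.40 (adjusted p = 6.02e-06) in kd1, both then called higher, and scaling by library totals alone moved them to -0.29 and -0.42, both then called lower. Without kd2 replicate 1, HSPA9 was called higher in kd1 (0.07, adjusted p = 0.0480).

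**Figure D4:**
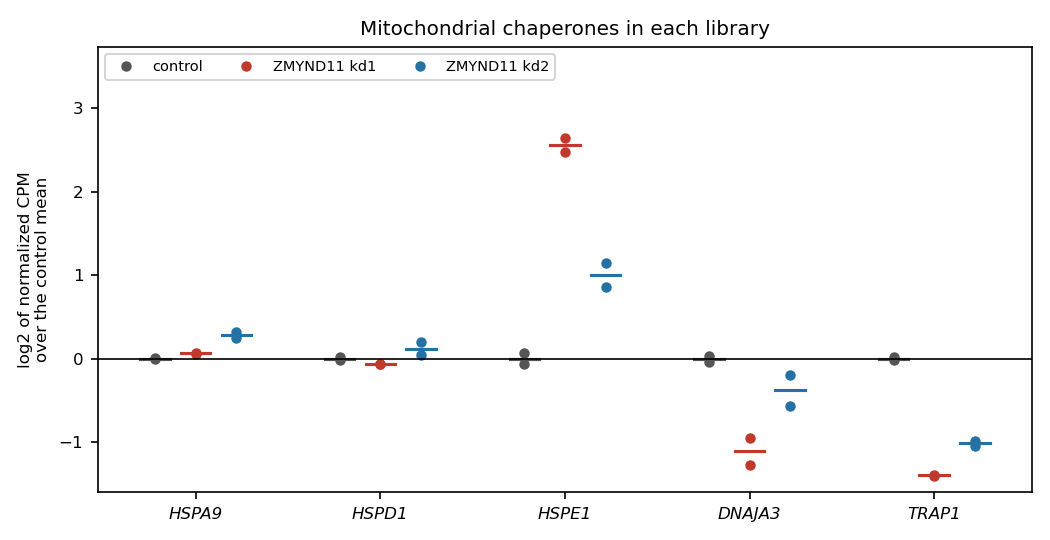
Log2 of normalized CPM over the control mean for the 5 mitochondrial chaperones, drawn as for the TRiC/CCT subunits. HSPE1 lies above control and TRAP1 and DNAJA3 below it in all 4 knockdown libraries, while HSPA9 and HSPD1 lie close to 0 in kd1.

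The heat shock factors rose in both knockdowns. HSF1 (chr8:144291591-144314720), the main factor of the heat shock response, read 34.7 and 34.5 CPM in control, 109 and 109 in kd1, and 87.1 and 87.3 in kd2. HSF2 (chr6:122399551-122433119), which can form mixed trimers with HSF1, read 23.3 and 23.1 CPM in control, 35.4 and 33.0 in kd1, and 41.5 and 43.7 in kd2. No knockdown library overlapped the controls, with HSF1 highest in kd1 and HSF2 highest in kd2, though with the correction for length and GC content HSF1 was called higher in kd2 than in kd1 (0.26). HSF1 changed by 1.65 ± 0.058 (SE) (adjusted p = 4.25e-12) and 1.33 ± 0.058 (SE) (adjusted p = 6.21e-11), or 3.15-fold and 2.52-fold, and with that correction the kd1 change was 1.07. HSF2 changed by 0.56 ± 0.076 (SE) (adjusted p = 9.54e-06) and 0.87 ± 0.075 (SE) (adjusted p = 8.44e-08). Transcript levels give no measure of the activity of either factor, which is set largely after translation. A list of 14 chaperone genes known to be raised by heat, of which 12 were tested, had 11 higher and none lower in each knockdown, with medians of 0.84 in kd1 and 1.20 in kd2, beside 38.2% and 36.5% of all genes called higher and a median of -0.03 over all genes in each. The 45 tested chaperone genes, which include these 12, had 34 higher in kd1 and 40 in kd2, with medians of 0.59 and 0.88. The 11 were HSPA8, HSPH1, HSP90AA1, HSPB1, HSPE1, DNAJA1, DNAJB1, BAG3, STIP1, AHSA1 and CHORDC1, HSPD1 did not pass, and HSPA1A and HSPA1B were not tested. The list was drawn up with earlier results of these data known, so its count is not independent evidence.

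Differences between the knockdowns were tested directly, in ZMYND11 kd2 against ZMYND11 kd1. There 22 of the 45 chaperone genes were higher in kd2, 14 lower and 9 not called, with a median of 0.15 against 0.02 over all genes, beside 68.8% of all genes called (34.9% higher and 33.8% lower). At 1.5-fold or more these were 11 higher and 3 lower, beside 44.8% of all genes (21.9% higher and 22.8% lower). With library totals alone they were 30 higher and 5 lower (85.7% of calls higher, in place of 61.1%), and without kd1 replicate 2 the 14 became 7. Among the genes higher in kd2, the largest differences were in BAG2, at 1.98 ± 0.14 (SE) (adjusted p = 1.29e-08), HSPA4, at 1.34 ± 0.049 (SE) (adjusted p = 2.91e-11), and HSPA13, at 1.26 ± 0.051 (SE) (adjusted p = 5.78e-11). Of the 45 genes, 4 (BAG2, HSPA13, FKBP4 and DNAJC2) were called lower in kd1 and higher in kd2 against control and differed between the knockdowns, beside 4.73% of all genes in that order and 9.1% in either order. On the other side, HSPB1 was lower in kd2 by 2.25 (adjusted p = 1.85e-11), HSPE1 by 1.55 (adjusted p = 1.62e-09) and DNAJB2 by 1.38 (adjusted p = 2.68e-10). With the correction for length and GC content the difference in HSPB1 was -1.33, still called but smaller in size than that in HSPE1 (-1.41). HSPH1, DNAJB4, FKBP4, CHORDC1, DNAJC2, DNAJB6, DNAJA3, TCP1, DNAJA1 and DNAJA4 were higher in kd2 by 0.51 to 0.98, and with the correction CHORDC1 was at 0.32, HSPH1 at 0.57 and DNAJB4 at 0.60. HSF1 was 0.32 lower in kd2 (adjusted p = 1.08e-04), a direction that turned with the correction as given above. Across all genes, the difference of kd2 from kd1 had a Spearman rho of -0.294 with GC content and 0.282 with transcript length over 16069 genes. Against control, rho was 0.189 with GC content and -0.31 with length in kd1, and -0.03 and -0.126 in kd2. These are descriptions across genes and not across samples, and the part of these trends in the chaperone changes was not tested.

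The size of many changes rested on how libraries were scaled and corrected. With the correction for length and GC content, the log2 change moved by over 1.5 times in 16 of the 41 called chaperone genes in kd1 (6 larger, 10 smaller), in 5 of 43 in kd2 (1 larger, 4 smaller) and in 18 of 36 between the knockdowns (3 larger, 11 smaller, 4 with the sign turned). With library totals alone it did so in 28 of 41 in kd1 (3 larger, 20 smaller, 5 turned), 11 of 43 in kd2 (10 smaller, 1 turned) and 17 of 36 between the knockdowns (6 larger, 9 smaller, 2 turned). DESeq2 or its size factors, the other filters, the replicate block and the 2 groups compared alone moved none of them that far. Among genes with values given above, the correction took the kd1 change to 0.95 in HSPA4, -0.49 in HSPA13, 0.47 in HSPA14, 0.25 in STIP1, 0.98 in DNAJB6, 0.45 in DNAJC7, 0.36 in BAG3, -0.76 in HSPB11, 0.65 in CCT3, 0.61 in CCT7 and 0.32 in CCT8. It took the kd2 change to 0.32 in HSPA13, 0.18 in CCT8 and 0.52 in HSPA9, and the difference between the knockdowns to 0.80 in HSPA13.

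Levels can be set against each other only per length of exon, taken here as the union of all annotated exons. In control cells HSP90AB1 was the most abundant at 391 CPM per kb, followed by HSPA8 at 199.9, HSP90AA1 at 179, HSPD1 at 169.6 and PTGES3 at 114, and BAG2 was the least abundant of the 45 tested genes at 1.53. This order depends on the length used, since with the longest transcript HSPD1 (262 CPM per kb) and HSP90AA1 (260) traded places, CCT3 came next at 176 and PTGES3 stood at 132, and the ranks of 37 of the 47 genes moved. HSPB1 went from 65.8 CPM per kb in control to 1068 in kd1, above every other chaperone gene there, and to 224 in kd2. HSPE1 stood at 10.5 CPM per kb in control, 62.0 in kd1 and 21.2 in kd2, and HSPD1 at 169.6, 162 and 185. Several of these genes, among them HSPE1, HSPD1, HSPA8, DNAJA1 and PTGES3, have processed copies in the genome, and the counts of listed copies named after a chaperone gene came to no more than 2.47% of those of the gene itself (in DNAJB6). How reads that match a gene and its copy were counted is not stated, so the levels of these genes are uncertain.

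**Figure D5:**
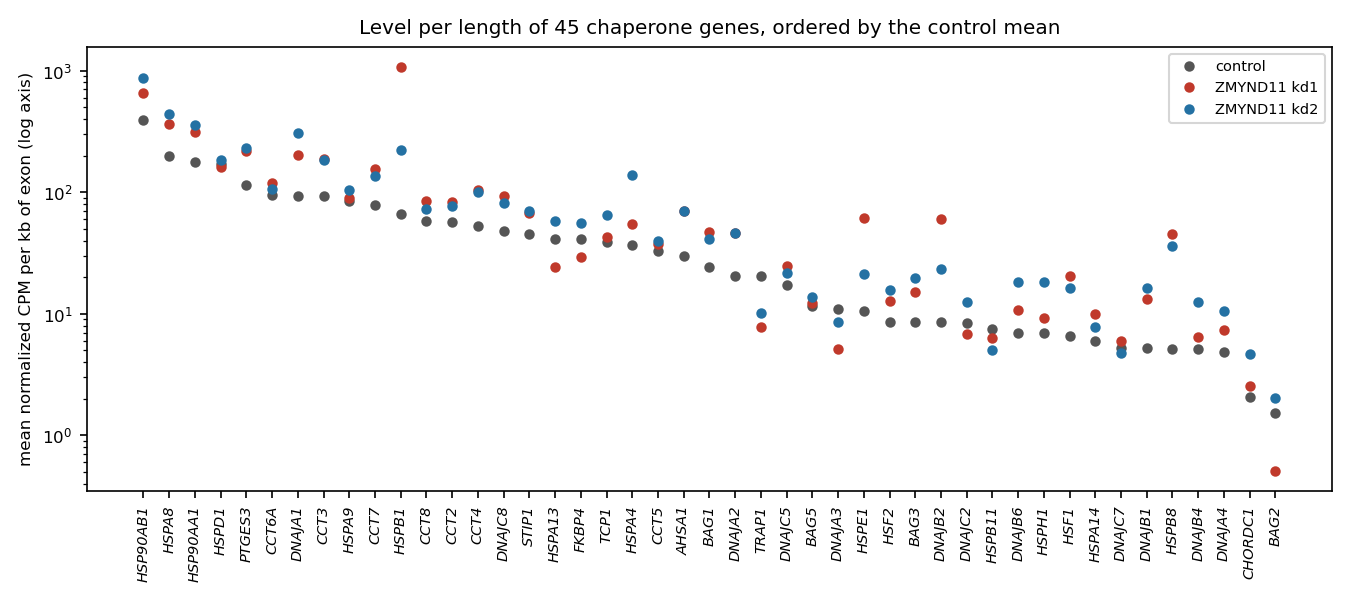
Mean normalized CPM per kb of exon (log axis) of the 45 tested chaperone genes, ordered by the control mean, for control (grey), ZMYND11 kd1 (red) and ZMYND11 kd2 (blue, mean of 2 libraries each). The knockdown points lie above the grey point for most genes, HSPB1 in kd1 is the highest point of all at 1068, and BAG2 in kd1 the lowest at 0.511.

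Other genes of the folding network, from lists that hold no member, are given by count. Prefoldin, which delivers new actin and tubulin to TRiC/CCT, had 5 of 6 subunits higher and none lower in each knockdown, among them PFDN1 at 2.05 and 1.09, PFDN6 at 1.91 and 1.34, and PFDN2 at 1.32 and 1.66. Tubulin folding cofactors, which act on tubulin after the ring, had 3 of 5 higher and 1 lower in kd1 and 4 higher and 1 lower in kd2, with TBCA at 1.92 and 0.91, TBCC at 1.81 and 1.37, and TBCB at 1.75 and 0.44. Of 13 other HSP90 co-chaperones, 9 were higher and 2 lower in each knockdown. FKBP5, the FKBP51 immunophilin, fell from 379 and 380.4 CPM in control to 68.8 and 70.0 in kd1 and 86.4 and 94.5 in kd2 (-2.45 and -2.07), whereas FKBP8 rose by 1.97 and 1.38 and CDC37L1 by 1.92 and 1.88. Of 14 tested other HSP70 and HSP110 network genes, 7 were higher and 5 lower in kd1, and 8 higher and 3 lower in kd2, with HSCB, a J-protein for iron-sulfur cluster proteins, at 1.82 and 0.97, DNAJC9, a histone chaperone, at -1.68 and -1.17, and HSPA12A at -1.20 and -2.03. Of 12 tested mitochondrial proteases, disaggregases and import motor genes, 7 were higher and 5 lower in kd1, and 7 higher and 2 lower in kd2, with DNAJC19 at 1.06 and 0.37, CLPB at -1.05 and -0.68, and SPG7 at -0.44 and -1.03. Of the other small heat shock proteins, CRYAB, the alpha-B crystallin, rose from 0.296 and 0.322 CPM in control (only 9 and 10 counts) to 4.06 and 4.80 in kd1 (138 and 142 counts) and 1.18 and 1.08 in kd2 (42 and 37 counts), and HSPB6 fell by 0.45 and 1.43. Of 3 further factors, HSBP1, a binding partner of HSF1, rose by 1.43 and 0.97, while HSF4 stood lower at -0.94 and -1.24 and IER5 at -0.45 and -0.40. These shares have the same background of 78% and 73.4% of all genes called.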

How the data were processed

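The authors deposited raw counts of reads per gene symbol, not normalized, for 6 libraries of 22Rv1 cells. Per the labels and the study's methods, reads were checked with FastQC 0.11.9, trimmed, aligned to hg38 with STAR 2.7.9a and counted with HTSeq 0.13.5 (versions from the submitters' processing notes). The annotation used, the use of strand, the handling of reads with several matches and the choice between poly(A) isolation and rRNA removal are not given in the sources used here. Unstranded counting would mix overlapping genes, and discarded multi-matching reads would lower genes with close copies.

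The quasi-likelihood test of edgeR 4.0.16 (R 4.3.3, TMM factors, filterByExpr, not robust) was run on these counts in a single fit of the 3 groups with 3 residual degrees of freedom. Normalized CPM used the same factors, and the SE was the size of the log2 fold change over the square root of F. Levels per kb used exon unions of GENCODE 44, which matched 32852 symbols by name and 240 by an older symbol of 35322. Alternatives were DESeq2 1.42.0 and its size factors, library totals, other filters, a replicate block, the 2 groups compared alone, a 1.5-fold minimum, the longest transcript as length, a correction for GC content and length with a lowess of span 0.3, and leaving out each library. The replicate pairs of each group differed by more than sampling noise, so none was a copy. Their chi-square per gene against sampling noise was 2.36 in control, 3.97 in kd1 and 10.7 in kd2. The single fit does not model a separate spread for each group, so the SE and p-values do not reflect this difference. The member genes and lists were chosen with earlier results of these data known. By rule, full values were given for the 3 genes of each role with the largest mean change of both knockdowns and for HSPA1A, HSPA1B, HSPA8, HSP90AA1, HSP90AB1, DNAJB1 and HSF1, and up to 3 genes of each other list with a log2 change of at least 1 were named. FKBP4, DNAJC2, HSPD1, HSPA6, the remaining genes of the last list and overlap partners were added after their values were seen.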

Additional observations from a re-analysis of the deposited data

Results flagged for a closer look

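In all, 4 chaperone genes were called in opposite directions in the knockdowns, and the difference itself passed the test of ZMYND11 kd2 against ZMYND11 kd1. These 4 of 45 stand beside 9.1% of all 16510 genes that met the same terms in either order, and 4.73% that were lower in kd1 and higher in kd2 as these were. BAG2 fell by 1.57 in kd1 and rose by 0.41 in kd2, a difference of 1.98 ± 0.14 (SE) (adjusted p = 1.29e-08 by edgeR's quasi-likelihood test). HSPA13 read 171 and 172 CPM in control, 101 and 100.4 in kd1, and 243 and 240.2 in kd2, at -0.77 ± 0.051 (SE) and 0.50 ± 0.050 (SE) against control, and differed by 1.26 ± 0.051 (SE) (adjusted p = 5.78e-11). FKBP4 differed by 0.92 ± 0.053 (SE) (adjusted p = 1.81e-09) and DNAJC2 by 0.87 ± 0.062 (SE) (adjusted p = 1.40e-08). In all of them both kd1 libraries lay below and both kd2 libraries above both controls. The opposite calls of HSPA13, FKBP4 and DNAJC2 held in each alternative fit, while the kd2 call of BAG2 was lost under the 3 named with its values. The sizes moved, however: with library totals alone FKBP4 stood at -0.83 in kd1 and 0.28 in kd2, DNAJC2 at -0.65 in kd1 and HSPA13 at 0.32 in kd2. A 1.5-fold minimum ended the opposite calls of all 4, since HSPA13 and BAG2 passed it in kd1 only and FKBP4 and DNAJC2 in neither knockdown. Groups of 2 libraries are too small for a test of a single outlying library.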

How the results depend on the processing

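Counts of chaperone genes called stayed within 1.5 times of those reported except as follows, and the cause was not tested. With library totals alone, genes lower in kd1 were 13 in place of 7 and genes lower in kd2 than in kd1 were 5 in place of 14. At 1.5-fold or more, which by construction asks for larger changes, genes lower were 4 in kd1 and 1 in kd2, and between the knockdowns 11 were higher and 3 lower. Leaving out a library gave 31 to 36 higher and 6 to 7 lower in kd1, 36 to 41 higher and 3 to 4 lower in kd2, and 21 to 24 higher and 7 to 16 lower between the knockdowns, the lowest of these (7) without kd1 replicate 2, where a lone library of a group is assumed to vary like the others. DESeq2 called 33 higher and 6 lower in kd1, and 40 higher and 3 lower in kd2.

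Libraries with the same number did not deviate together (correlations of 0.0062, -0.026 and -0.044), so the numbers do not pair them, and the fit with the replicate block kept 34 higher and 7 lower, 40 and 3, and 22 and 14, while all calls went from 12882 to 12545 in kd1, from 12118 to 11688 in kd2 and from 11355 to 10978 between the knockdowns. 

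With library totals alone, the sign of the log2 fold change turned in kd1 for CHORDC1 (-0.044), DNAJB4 (-0.011), DNAJC7 (-0.17), BAG5 (-0.27), TCP1 (-0.23), CCT5 (-0.16), CCT6A (-0.030) and HSPA9 (-0.29), in kd2 for CCT6A (-0.010) and HSPD1 (-0.047), and between the knockdowns for DNAJA2 (0.18), CCT2 (0.070), CCT3 (0.17), CCT4 (0.13), CCT6A (0.020) and CCT7 (0.0017). With the correction for GC content and length, it turned in kd1 for HSPD1 (0.40), and between the knockdowns for PTGES3 (-0.0006), BAG5 (-0.15), CCT3 (0.23), CCT5 (-0.033), CCT7 (0.067), HSPA9 (-0.19), HSPD1 (-0.24) and HSF1 (0.26). With the size factors of DESeq2, it turned between the knockdowns for AHSA1 (-0.0035). Without a filter, the sign turned between the knockdowns for DNAJA2 (0.0020). Leaving out a library, differences between the knockdowns that changed sign ranged from -0.063 to 0.059 for AHSA1, from -0.057 to 0.038 for DNAJA2, from -0.076 to 0.035 for CCT3, from -0.11 to 0.0097 for CCT4.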
